A study of Mus musculus with 4 samples.

Results

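Transcripts of the cadherins, unclustered protocadherins and catenins were read in C3H10T1/2, a fibroblast line from mouse embryos that stops growing at contact, after exposure to a tumour initiator and a tumour promoter. The members were all probes of the custom mouse array named for the Cdh and Pcdh genes with a plain number, Fat1 to Fat4, Celsr1 to Celsr3, the desmocollins (Dsc) and desmogleins (Dsg), and the catenins Ctnna1, Ctnna2, Ctnnb1, Ctnnd1, Ctnnd2 and Jup. They are 110 of 61307 probes and 59 of 50090 named features. The 2 arrays of exposed cells held RNA of cultures given 3-methylcholanthrene (3MC), a polycyclic aromatic hydrocarbon, at 2.5 µg/ml for 2 days. After 4 days without it, these cultures were given the phorbol ester TPA at 100 ng/ml over 2 weeks, and then normal medium for 4 weeks. The 2 control arrays held RNA of C3H10T1/2 cells cultured for 6 weeks, with no exposure named. The study calls the exposed cells transformed, and per the labels some flasks were stained to score foci while others gave RNA. Labelled RNA was hybridised in duplicate. Nothing in the labels says that the 2 arrays of a group hold separate cultures, so the p-values rest on a spread between arrays that could be purely technical.

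Classical cadherins are transmembrane receptors that bind like molecules on the next cell through calcium-dependent extracellular repeats. Their tails bind delta-catenin and beta-catenin, and alpha-catenin joins that complex to actin. Desmosomal cadherins bind plakoglobin and anchor intermediate filaments. Protocadherins mostly lack the catenin-binding tail and are best known from neurons, Fat and Celsr proteins act in planar cell polarity, and atypical cadherins such as Cdh13 lack a classical tail. Fibroblasts typically carry Cdh2 and Cdh11, while Cdh1 marks epithelia. In bulk RNA, fewer cells of a type and less RNA per cell cannot be told apart.

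On each array 32125 to 32512 of 61657 spots passed the scanner's flag for a signal well above background. Fibroblast markers were well above background on both arrays of a group for 9 of 9 genes, with Thy1 higher and Pdgfra and Pdgfrb lower in 3MC+TPA cells and a summed level of 10.58 to 10.63 in 3MC+TPA cells and 10.74 to 10.87 in control cells (log2, with 0 at each array's 75th percentile of signal). Of 9 epithelial markers, 3 were tested and 0 were called, also at an unadjusted p under 0.05, with Cldn4, Cldn7, Krt18, Krt19 and Esrp1 not well above background on any array, Epcam above it on 3MC+TPA array 1 only, and a summed level of -1.68 to -1.61 in 3MC+TPA cells and -1.72 to -1.61 in control cells. Of the leukocyte and skeletal muscle markers 2 and 1 were tested and 0 were called (1 each higher at an unadjusted p under 0.05, Cd68 and Des), and Ptprc, Myod1 and Myog were not well above background on any array. All 4 arrays lie on 1 slide with the groups at separate positions, so position and group cannot be told apart.

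More of the members were higher than lower in 3MC+TPA cells. Of the 59 genes, 24 had a probe well above background on both arrays of at least 1 group and were tested. In limma's fit over all 24977 such features, 10 of these members were higher, 1 was lower and 13 were not called at a Benjamini-Hochberg adjusted p under 0.05. Over all features tested 15.9% were called, 7.49% higher and 8.37% lower. The members' median log2 change was 0.19, against -0.01 over all features. The log2 values of the groups did not overlap in 21 of the 24, against 63.8% of all features. Some members could be tested only because they were bright in 3MC+TPA cells; among the 18 well above background on all 4 arrays, 5 were higher and 1 was lower, against 13.4% called among all such features, and their median change was 0.06. The higher genes were Pcdh17, Cdh13, Cdh17, Pcdh9, Cdh10, Pcdh12, Cdh2, Pcdh19, Ctnna1 and Cdh20, and the lower gene was Cdh26. Of 33 member probes tested on their own, 10 were called higher and 3 lower, against 15.5% of all probes called. Among these 3 were 2 probes of Cdh11, with log2 changes of -3.56 and -3.74, though its brightest probe was not called. The 13 members not called by their brightest probe had log2 changes of -0.58 (Cdh11) to 0.30, with 5 above 0 and 8 below. Those near 0 have no settled direction: without scaling between arrays, where every change shifts upward by a like amount, Ctnnb1, Ctnnd1, Dsc3, Pcdh18 and Pcdh21 were above 0, and with normexp background correction Celsr2 and Celsr3 were below 0. These calls rest on few arrays: 3 members were called without 3MC+TPA array 1, 5 without 3MC+TPA array 2, and 2 when no filter was set on dim probes.

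**Figure D1:**
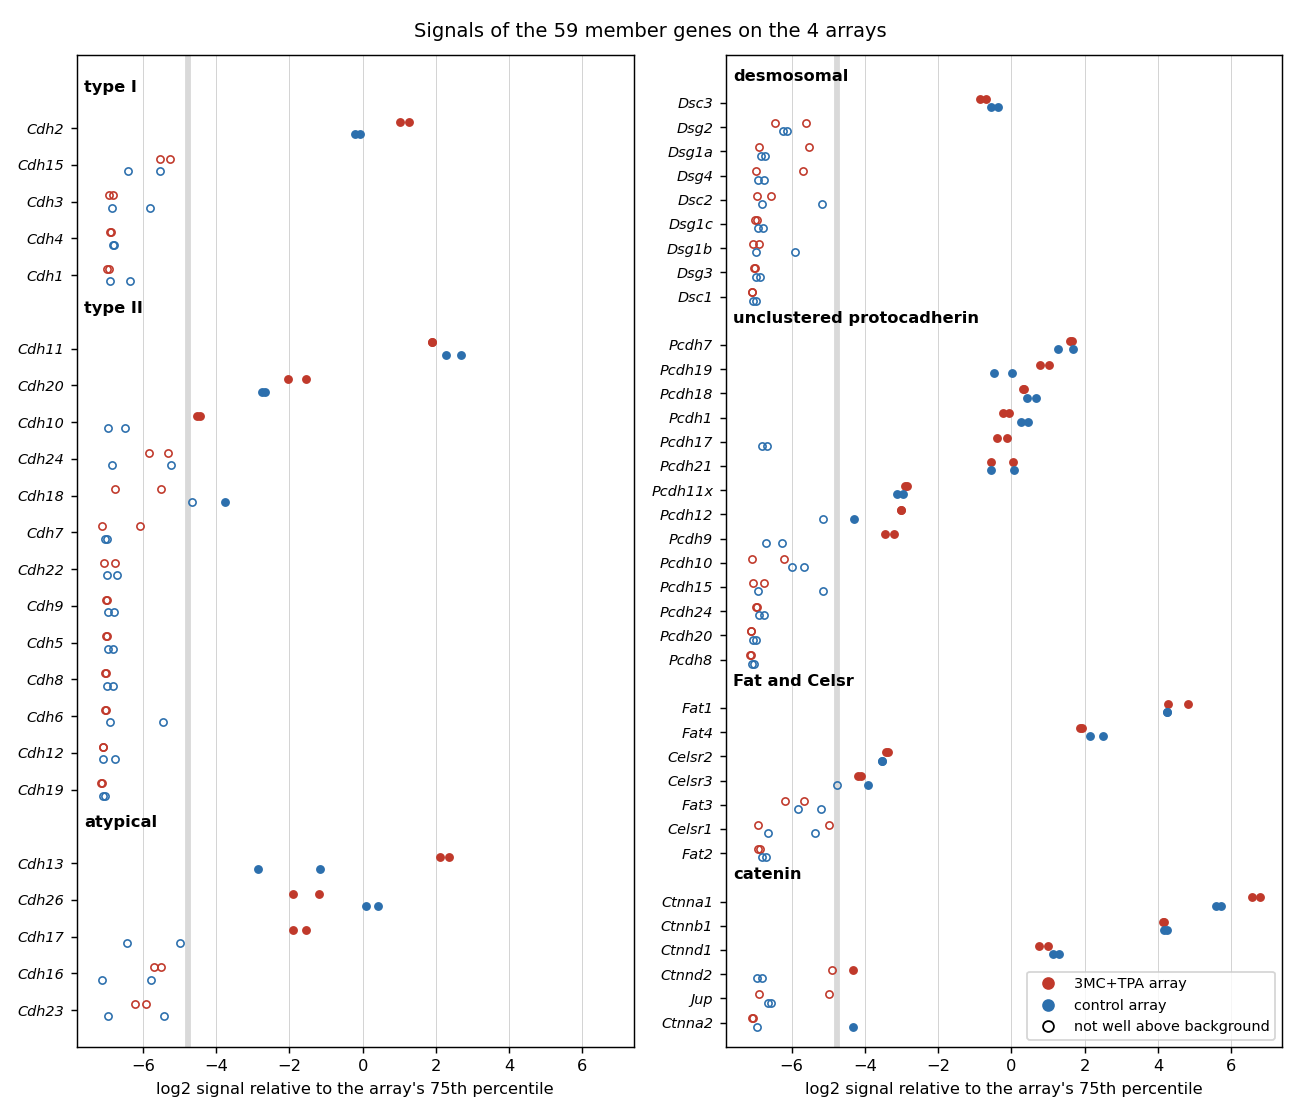
Signal of each member gene, read by its brightest probe, on the 4 arrays (log2 of the processed signal, with 0 at the 75th percentile of each array); 3MC+TPA arrays are plotted above control arrays, open circles are not well above background, and the grey band spans the dimmest signals that the scanner called well above background on the 4 arrays. Pcdh17, Pcdh9, Cdh17 and Cdh10 have filled circles on both 3MC+TPA arrays and open ones on both control arrays.

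The remaining 35 members were not tested. For 32 of them the brightest probe was not well above background on any array, with log2 levels of -7.15 to -4.98 on 3MC+TPA arrays and -7.10 to -5.14 on control arrays. The other 3 passed the flag on a single array, Ctnnd2 on 3MC+TPA array 1 and Ctnna2 and Cdh18 on control array 2. No direction is given for any of the 35.

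The type I cadherins were represented above background by Cdh2 alone. Cdh2, N-cadherin, the classical cadherin of fibroblasts and neurons, read 1.28 and 1.01 on 3MC+TPA arrays 1 and 2, and -0.08 and -0.21 on control arrays 1 and 2 (log2, with 0 at each array's 75th percentile of signal, as for all levels below). Both 3MC+TPA arrays lay above both control arrays. The log2 change was 1.29 with a standard error of 0.17, a 2.45-fold higher signal in 3MC+TPA cells (limma, adjusted p = 0.0114). The call was lost without 3MC+TPA array 1, where the log2 change was 1.16 (limma, adjusted p = 0.0618).

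Cdh1, E-cadherin, the main cadherin of epithelial junctions, was not well above background in either group, at -6.94 and -6.97 on 3MC+TPA arrays and -6.35 and -6.89 on control arrays. Cdh3, P-cadherin, on 2 probes, Cdh4, R-cadherin, on 3 probes, and Cdh15, the cadherin of muscle cells, were likewise not well above background on any array. No exchange between Cdh1 and Cdh2 could therefore be measured on these arrays, since Cdh1 had no reading above background on any of them.

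Of the 13 type II cadherins, 3 were tested, and Cdh10 and Cdh20 were higher, against 7.49% higher over all features tested. Cdh10 could be tested only because it was well above background on both 3MC+TPA arrays. Of the 2 type II genes well above background on all 4 arrays, 1 was called, against 13.4% of all such features. Cdh11, the cadherin of mesenchymal and bone-forming cells, had 3 tested probes that did not give the same call. They differ in sequence and carry the same Cdh11 transcript in their annotation, and bases 1 to 30 of each 60-base probe are shown because the results turn on which probe is used. In order of mean signal they are:
Cdh11 probe 1: ctcagggacaaccaaagtgacgatcactct
Cdh11 probe 2: tatttaaatgaaggagaagtccacggtgaa
Cdh11 probe 3: tattttagtatacatacaaatatcagtatt
The full probes hold 48.3%, 36.7% and 28.3% G or C in this order, and the array files give no genome position for them; Cdh11 lies on mouse chromosome 8.

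Probe 1 of Cdh11, the brightest over the 4 arrays and so the reading of the gene, gave 1.88 and 1.90 on 3MC+TPA arrays and 2.27 and 2.68 on control arrays. Both 3MC+TPA arrays lay below both control arrays, but the log2 change of -0.58 (standard error 0.19) was not called (limma, adjusted p = 0.106). Probe 2 gave -0.43 and -0.47 on 3MC+TPA arrays and 3.30 and 2.93 on control arrays. Its log2 change was -3.56 with a standard error of 0.19 (limma over 32103 probes, adjusted p = 0.000878), where 15.5% of all probes were called. Probe 3 gave -1.09 and -1.51 on 3MC+TPA arrays and 2.70 and 2.18 on control arrays, a log2 change of -3.74 with a standard error of 0.26 (limma over all probes, adjusted p = 0.00173). Cdh11 thus read lower in 3MC+TPA cells on all 3 probes and was called lower on 2 of them, and the gene's reading by its brightest probe did not pass. The reason for the unequal changes was not tested.

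**Figure D2:**
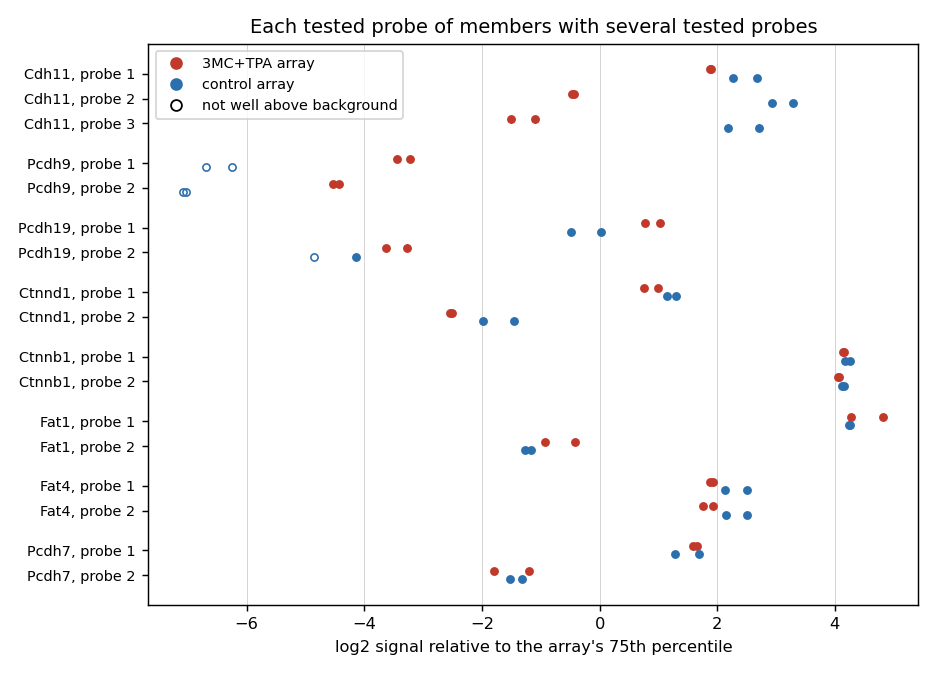
Signals of every tested probe of the 8 members with more than 1 tested probe (log2, with 0 at the 75th percentile of each array), with 3MC+TPA arrays above control arrays and open circles for readings not well above background; probe 1 has the highest mean signal. Cdh11 probes 2 and 3 separate the groups widely and probe 1 does so narrowly, while both probes of Pcdh9 are above background on 3MC+TPA arrays only.

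Cdh10, a type II cadherin of the brain, read -4.52 and -4.45 on 3MC+TPA arrays, and -6.95 and -6.48 on control arrays, where it was not well above background. Its signal was at least 1.20-fold higher in 3MC+TPA cells, counted against the dimmest signal that the scanner called well above background. The p-value beside such a bound is that of the fitted log2 change, here 2.23 (limma, adjusted p = 0.00438). The reading on control array 1 was a substitute value that the software sets for the dimmest spots. The 3MC+TPA readings of Cdh10 lay close to that dimmest signal. The call was lost with normexp background correction, where the log2 change was 0.21 (limma, adjusted p = 0.281), short of the bound's log2 of 0.26. Here and below, that correction adds an offset of 50 to each signal, which draws changes of dim probes toward 0. Before it, Cdh10 had signals of 30.5 and 34.2 on 3MC+TPA arrays and 4.39 and 6.66 on control arrays. Cdh20, also studied mainly in the nervous system, read -2.05 and -1.56 on 3MC+TPA arrays and -2.66 and -2.76 on control arrays, a log2 change of 0.91 with a standard error of 0.21 (limma, adjusted p = 0.0497). This call was lost in 10 of 14 alternatives, among them the omission of any array, and the lowest log2 change was 0.54.

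Cdh5, VE-cadherin of endothelium, was not well above background on either of its 2 probes, with the brighter at -6.99 and -7.02 on 3MC+TPA arrays and -6.81 and -6.94 on control arrays. Cdh8, Cdh11 and Cdh5 follow each other on chromosome 8 with 0 protein-coding genes between them, and of these only Cdh11 was above background. Cdh6, Cdh9, Cdh10 and Cdh12 follow each other on chromosome 15 in the same way, and of these only Cdh10 was above background on any array.

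The 3 tested atypical cadherins were all called, Cdh13 and Cdh17 higher and Cdh26 lower, against 15.9% called over all features tested. Cdh17 could be tested only because it was well above background on both 3MC+TPA arrays. The 2 others were well above background on all 4 arrays, where 13.4% of all such features were called. Cdh13, T-cadherin, held in the membrane by a lipid anchor and a receptor for adiponectin, read 2.10 and 2.36 on 3MC+TPA arrays, and -1.16 and -2.86 on control arrays. Both 3MC+TPA arrays lay above both control arrays, and the 2 control arrays stood well apart from each other. The log2 change was 4.24 with a standard error of 0.56, an 18.9-fold higher signal in 3MC+TPA cells (limma, adjusted p = 0.0111). The change was 3.39 when control array 2 was left out and 5.09 when control array 1 was, and the call was lost without 3MC+TPA array 1 or 2, where the log2 changes were 4.37 and 4.11.

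Cdh17, the liver-intestine cadherin known from gut epithelium, read -1.91 and -1.54 on 3MC+TPA arrays. It was not well above background on control arrays, at -4.98 and -6.43. The signal was at least 8.15-fold higher in 3MC+TPA cells (limma, adjusted p = 0.00927), a bound that holds for the values as scaled here. The call was lost without 3MC+TPA array 1 or 2, where the log2 changes were 4.17 and 3.80. With normexp background correction the log2 change was 1.51, short of the bound's log2 of 3.03. Of the epithelial markers given above, 0 of the 3 tested were called.

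Cdh26, a cadherin of epithelial cells, was the member with the lower call. It read -1.90 and -1.20 on 3MC+TPA arrays and 0.42 and 0.09 on control arrays, a log2 change of -1.80 with a standard error of 0.28, or 3.49-fold lower in 3MC+TPA cells (limma, adjusted p = 0.0179). Without 3MC+TPA array 1 the log2 change was -1.45 and the call was lost. Cdh16, a cadherin of kidney, and Cdh23, a part of the tip links of hair cells, were not well above background on any array.

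Of the 14 unclustered protocadherins, 9 were tested, 4 were higher and 0 were lower in limma's fit (1 lower at an unadjusted p under 0.05, Pcdh1). Over all features tested 7.49% were higher and 8.37% lower. Pcdh17, Pcdh9 and Pcdh12 could be tested only because they were well above background on both 3MC+TPA arrays. Among the 6 protocadherins well above background on all 4 arrays, 1 was higher and 0 were lower, against 13.4% called among all such features. Pcdh17, known from synapses and growing axons, read -0.12 and -0.41 on 3MC+TPA arrays. On control arrays it read -6.67 and -6.82, not well above background on either. The signal was at least 22.4-fold higher in 3MC+TPA cells, a bound that holds for the values as scaled here. The p-value is that of the fitted log2 change of 6.48 (limma, adjusted p = 0.000216). Both control readings were substitute values, so their spread is not a measured one. Among the 13 alternatives the call was lost only with the methods' t-test after adjustment. With normexp background correction the log2 change was 2.88, short of the bound and below the 3.71 of Cdh13 in that setting. The offset of that correction lowers the change of a gene with dim control readings.

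Pcdh9, like Pcdh17 a delta-protocadherin best known from brain, read -3.22 and -3.45 on 3MC+TPA arrays and -6.69 and -6.25 on control arrays. It was not well above background on the control arrays. The signal was at least 2.67-fold higher in 3MC+TPA cells (limma, adjusted p = 0.00176). With normexp background correction the log2 change was 0.64, short of the bound's log2 of 1.42. A second probe read -4.43 and -4.53 on 3MC+TPA arrays and -7.03 and -7.08 on control arrays, at least 1.20-fold higher (limma over all probes, adjusted p = 0.00124). Both control readings of this second probe were substitute values. Probe 3 of Pcdh9 was not well above background on any array.

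Pcdh17 and Pcdh9 lie on chromosome 14 in the order Pcdh8, Pcdh17, Pcdh20, Pcdh9, with 1, 2 and 0 protein-coding genes between neighbours. Pcdh8 and Pcdh20 were not well above background on any array, at -7.15 to -7.11 on 3MC+TPA arrays and -7.10 to -6.99 on control arrays. The 250 bases upstream of the start of Pcdh17, Pcdh9 and Pcdh20, from RefSeq on GRCm38.p6, are shown because these neighbours differ in reading. CG dinucleotides are in capitals.
Pcdh17 (chr14:84443313-84443562, plus strand): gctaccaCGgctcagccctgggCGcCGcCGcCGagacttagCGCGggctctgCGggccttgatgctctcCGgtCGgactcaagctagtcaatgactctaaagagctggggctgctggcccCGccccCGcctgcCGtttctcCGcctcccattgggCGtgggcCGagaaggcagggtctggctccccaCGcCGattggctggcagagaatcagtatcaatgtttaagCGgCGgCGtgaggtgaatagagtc
Pcdh9 (chr14:93890670-93890919, minus strand): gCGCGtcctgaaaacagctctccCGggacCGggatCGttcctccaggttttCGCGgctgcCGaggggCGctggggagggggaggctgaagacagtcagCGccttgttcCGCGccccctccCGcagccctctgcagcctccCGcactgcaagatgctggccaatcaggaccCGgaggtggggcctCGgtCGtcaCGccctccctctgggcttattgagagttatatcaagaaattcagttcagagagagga
Pcdh20 (chr14:88471397-88471646, minus strand): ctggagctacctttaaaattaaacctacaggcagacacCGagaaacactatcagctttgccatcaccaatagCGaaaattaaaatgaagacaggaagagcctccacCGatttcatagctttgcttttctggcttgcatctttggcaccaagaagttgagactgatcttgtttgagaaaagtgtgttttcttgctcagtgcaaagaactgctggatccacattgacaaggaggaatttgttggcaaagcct
The windows of Pcdh17 and Pcdh9 held 21 and 18 CG dinucleotides and that of Pcdh20 held 3, against a median of 6 over 32851 promoters of the same table. Pcdh8, also at background, had 11. CG content varied likewise among the other called members with an entry: Pcdh19 had 16, Cdh20 10, Cdh10 2 and Cdh26 0.

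The same windows were searched on both strands for CAGGTG, the E-box bound by Snai and Zeb repressors, and for TGANTCA, where N is any base. The latter pattern includes the element bound by AP-1 factors, which TPA induces in many cells. CAGGTG was found in 7 of the 40 promoters of 35 members (17.5%), against 17.2% of all promoters, and in 0 of the 7 promoters of the 6 called members with an entry. TGANTCA was found in 0 of the 40, against 6.75% of all promoters. These counts describe the letters in 250 bases only. Cdh1 had no entry and was not searched, nor were the called members Cdh2, Cdh13, Cdh17, Ctnna1 and Pcdh12.

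Pcdh12, a protocadherin of endothelium and placenta, read -3.01 and -3.02 on 3MC+TPA arrays, and -4.30 and -5.14 on control arrays, where it passed the background flag on array 1 only. The log2 change was 1.71 with a standard error of 0.30 (limma, adjusted p = 0.0234). The call was lost without 3MC+TPA array 1 or 2 and with normexp background correction, where the log2 change was 0.45. Of 6 endothelial markers, Tek was higher, at -3.95 and -3.90 on 3MC+TPA arrays and -5.47 and -5.98 on control arrays, while Vwf, the other one tested, had a log2 change of -0.79 that was not called (limma, adjusted p = 0.261). Pecam1, Kdr, Tie1 and Emcn were not well above background on any array. The summed endothelial level was -2.86 to -2.44 in 3MC+TPA cells and -2.86 to -2.78 in control cells.

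Pcdh19, X-linked and known from a form of epilepsy in humans, read 0.77 and 1.03 on 3MC+TPA arrays and 0.02 and -0.48 on control arrays. Its log2 change was 1.13 with a standard error of 0.23 (limma, adjusted p = 0.0336). A second probe gave a log2 change of 1.05 that did not pass (limma over all probes, adjusted p = 0.0738), and the call was lost without 3MC+TPA array 1, 3MC+TPA array 2 or control array 2, with 0.88 the lowest log2 change. Of 5 neuron and glia markers, Map2 was higher, at 1.92 and 1.63 on 3MC+TPA arrays and -1.16 and -2.80 on control arrays. The summed level of that list was 1.89 to 2.15 in 3MC+TPA cells and -0.32 to 0.12 in control cells. The median log2 change of its 4 tested genes was -0.13, with 1 higher and 1 lower at an unadjusted p under 0.05. Tubb3 and Sox10 were tested and not called, and Snap25 passed the flag on control array 2 only; the part of these markers in the protocadherin results was not tested.

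The other 5 tested protocadherins did not pass the test. Pcdh1, of airway epithelium among other tissues, read -0.05 and -0.24 on 3MC+TPA arrays and 0.46 and 0.27 on control arrays, a log2 change of -0.51 (limma, adjusted p = 0.105). Pcdh7, also a delta-protocadherin, read 1.65 and 1.59 on 3MC+TPA arrays and 1.28 and 1.69 on control arrays, and the groups overlapped. Pcdh18 had a log2 change of -0.22 and Pcdh11x one of 0.17. Pcdh21, now named Cdhr1 and known from photoreceptors, read -0.57 and 0.03 on 3MC+TPA arrays and 0.06 and -0.57 on control arrays, so the groups overlapped fully. Pcdh8, Pcdh10, Pcdh15, Pcdh20 and Pcdh24 were not well above background on any array.

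**Figure D3:**
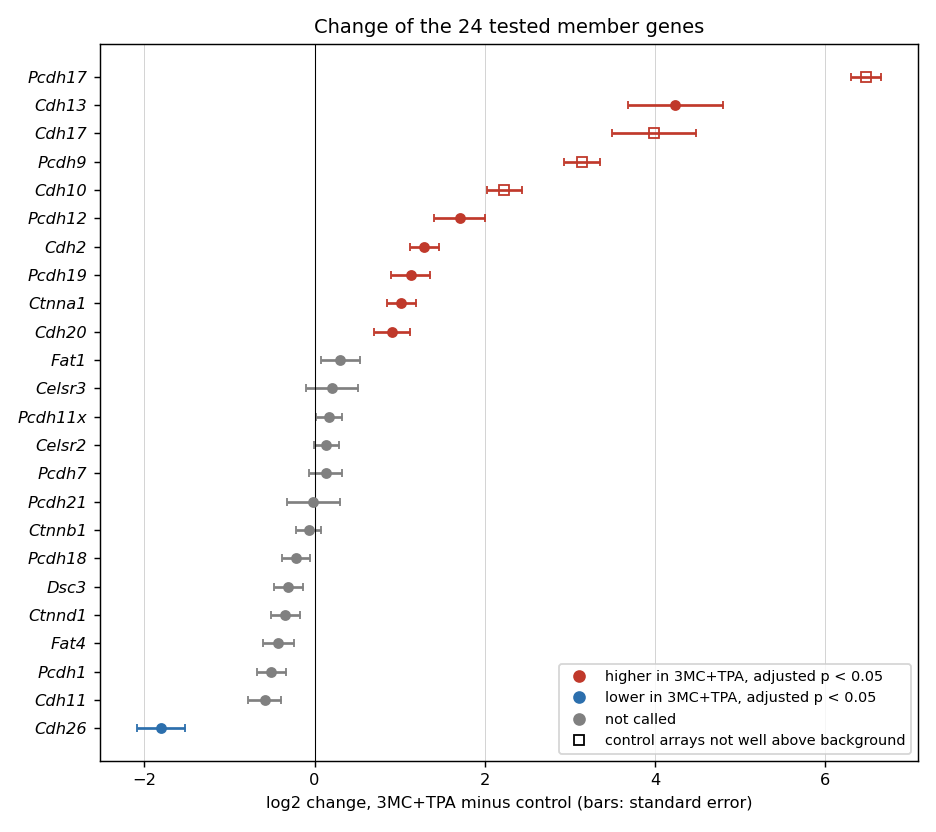
Log2 change (3MC+TPA minus control) of the 24 tested member genes with its standard error; red marks higher and blue lower genes with an adjusted p under 0.05, grey is not called, and open squares mark genes whose control arrays were not well above background, for which the fitted change is no bound. Pcdh17 stands at 6.48 at the top and Cdh26 at -1.80 at the bottom.

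Of the 4 tested Fat and Celsr genes 0 were called in limma's fit, against 15.9% of all features tested, and 0 had an unadjusted p under 0.05. Fat1, a giant cadherin that acts on actin dynamics, read 4.83 and 4.27 on 3MC+TPA arrays and 4.24 and 4.25 on control arrays, with log2 changes of 0.30 and 0.55 on its 2 probes. Fat4, a receptor for Dchs1 in the Hippo pathway, read 1.92 and 1.88 on 3MC+TPA arrays and 2.51 and 2.14 on control arrays. Its log2 change was -0.42 (limma, adjusted p = 0.185), and a second probe gave -0.48. Celsr2 and Celsr3, of the core polarity pathway, had log2 changes of 0.14 and 0.21, while Celsr1, Fat2 and Fat3 were not well above background on any array.

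Among the 9 desmosomal cadherins, Dsc3 was the single gene above background. It read -0.86 and -0.68 on 3MC+TPA arrays and -0.37 and -0.56 on control arrays, a log2 change of -0.31 (limma, adjusted p = 0.262). Dsc1, Dsc2, Dsg1a, Dsg1b, Dsg1c, Dsg2, Dsg3 and Dsg4 were not well above background on any array. Cdh2 and the 9 desmosomal genes follow each other on chromosome 18 with 0 protein-coding genes between neighbours, and Cdh2 alone of this run was called.

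Of the 6 catenins, 3 were tested, and Ctnna1 was higher, against 7.49% higher over all features tested. Ctnna1, alpha-catenin, which links the cadherin complex to actin, read 6.56 and 6.79 on 3MC+TPA arrays and 5.73 and 5.58 on control arrays. Both 3MC+TPA arrays lay above both control arrays, and the log2 change was 1.02 with a standard error of 0.17, a 2.02-fold higher signal (limma, adjusted p = 0.0203). The call was lost without 3MC+TPA array 1, 3MC+TPA array 2 or control array 2, with log2 changes of 1.13, 0.91 and 0.94.

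Ctnnb1, beta-catenin, which acts both in junctions and in Wnt signalling, read 4.16 and 4.13 on 3MC+TPA arrays and 4.26 and 4.16 on control arrays. Its log2 changes of -0.07 and -0.08 on 2 probes did not pass (limma, adjusted p = 0.791 for the gene), and without scaling between arrays the direction turned to 0.28. Ctnnd1, the catenin that steadies cadherins at the membrane, read 0.75 and 0.99 on 3MC+TPA arrays and 1.29 and 1.14 on control arrays. Its log2 changes were -0.35 and -0.81 on 2 probes, neither called (limma over all probes, adjusted p = 0.233 and 0.0683). Jup, plakoglobin, the catenin shared with desmosomes, was not well above background, at -6.89 and -4.98 on 3MC+TPA arrays and -6.56 and -6.66 on control arrays.

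The other genes of the cadherin system were read in 9 lists, of which 95 distinct genes were tested, 18 higher and 7 lower. Over all features tested 7.49% were higher and 8.37% lower. Across the lists 25 genes were called, against 15.9% of all features; without 3MC+TPA array 1 the count was 11, and without 3MC+TPA array 2 it was 8. The adherens junction partners, which dock on cadherin complexes, had 8 of 20 higher and 0 lower in limma's fit (also 0 lower at an unadjusted p under 0.05), with a median log2 change of 0.62. Magi1, a scaffold, read 3.70 and 3.44 on 3MC+TPA arrays and 1.88 and 1.85 on control arrays (limma, adjusted p = 0.00492). Tjp1, ZO-1, which binds alpha-catenin, had a log2 change of 1.62, Ctnnal1, an alpha-catenin relative, 1.61, and Plekha7, which ties junctions to microtubules, was at least 1.16-fold higher. Pkp4, Afdn and Iqgap1 were also higher.

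The nectins, immunoglobulin-type partners of cadherins at junctions, had 2 of 5 tested genes higher, Nectin1 and Pvr, and 0 lower, also at an unadjusted p under 0.05. Their log2 changes were 1.21 and 1.08, and the list's median was 0.55. Of the desmosomal plaque genes 3 of 5 tested were higher, while the desmosomal cadherins themselves were mostly at background. For the nectin and plaque lists alike, the share higher over all features tested was 7.49%. Pkp2, a plakophilin, read 1.93 and 1.52 on 3MC+TPA arrays and 0.41 and -0.95 on control arrays (limma, adjusted p = 0.0485). Pkp3, another plakophilin, had a log2 change of 1.79, and Perp, a membrane protein of desmosomes, was at least 2.40-fold higher.

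Of the repressors and activators of Cdh1, 10 were tested, and Snai1 alone was called, against 15.9% of all features tested. At an unadjusted p under 0.05, 1 of the 10 was higher and 3 were lower. Snai1, a repressor of Cdh1 transcription, read 1.48 and 1.47 on 3MC+TPA arrays and 2.84 and 2.97 on control arrays, a log2 change of -1.43 (limma, adjusted p = 0.00627). Cdh1 itself was at background in both groups. Of 16 sheddases and turnover genes Fyn alone was called, against the same 15.9% (4 higher and 0 lower at an unadjusted p under 0.05). Fyn, a Src-family kinase that acts on junction proteins, had a log2 change of 2.35 (limma, adjusted p = 0.0116).

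The beta-catenin destruction complex had 0 of 11 tested genes called in either direction by limma (3 higher and 1 lower at an unadjusted p under 0.05), with a median of 0.04, and Apc had the largest log2 change in that list, 0.63 (limma, adjusted p = 0.0911). Of 13 tested beta-catenin target genes 5 were lower and 1 was higher, with a median of -0.84. Over all features tested 8.37% were lower and 7.49% higher. Rnf43, a ubiquitin ligase that removes Frizzled receptors, read -6.93 and -6.99 on 3MC+TPA arrays and -1.13 and -0.64 on control arrays. It was at least 15.2-fold lower in 3MC+TPA cells (limma, adjusted p = 0.000313). Tnfrsf19, a receptor of the TNF receptor family, was at least 4.84-fold lower, Lef1, a partner of beta-catenin on DNA, had a log2 change of -2.33, and Notum, a secreted Wnt inhibitor, one of -2.22. Tcf7 was the fifth lower gene, and Znrf3, a relative of Rnf43 with the same kind of activity, was higher with a log2 change of 1.53.

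The planar polarity and Fat partner list had 3 of 13 tested genes higher and 1 lower, against 7.49% and 8.37% of all features tested. Fzd6, a Frizzled receptor of the polarity pathway, read -1.70 and -1.64 on 3MC+TPA arrays and -4.35 and -7.05 on control arrays, the last not well above background (limma, adjusted p = 0.0379). Prickle2 and Dvl1, cytoplasmic parts of the pathway, had log2 changes of 1.42 and 0.79. Fjx1, the relative of a fly kinase that modifies Fat, was lower with a log2 change of -1.71. Of the other cadherin superfamily genes 4 were tested and 0 were called by limma (1 higher at an unadjusted p under 0.05), with Clstn3 showing the largest log2 change, 0.44 (limma, adjusted p = 0.109).

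**Figure D4:**
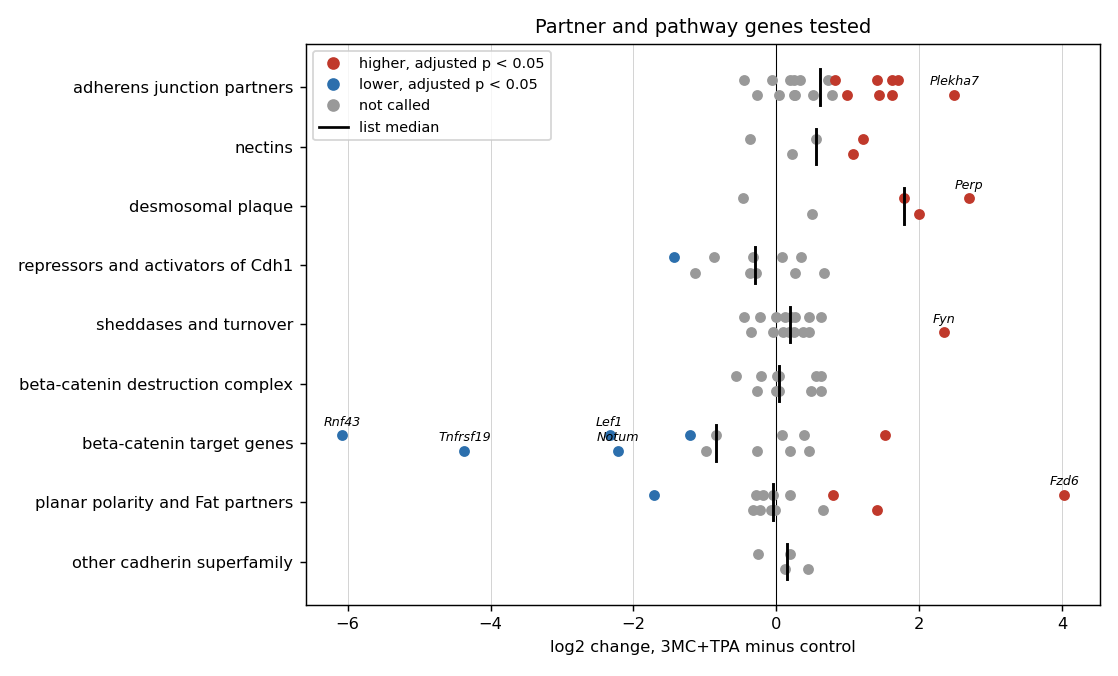
Log2 change (3MC+TPA minus control) of every tested gene of the 9 partner and pathway lists, 1 point a gene, with red for higher and blue for lower genes past an adjusted p of 0.05, grey for not called, and a black bar at the list's median. Adherens junction partners have 8 red points and no blue one, and beta-catenin target genes have 5 blue points and 1 red one; called genes whose log2 change exceeds 2 in size are named.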

How the data were processed

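RNA of 2 3MC+TPA and 2 control samples was read on 4 arrays in 1 colour. The intensity values come from Agilent's Feature Extraction, version 10.7.3.1, per the file headers; its processed signal is background subtracted, with a substitute value for the dimmest spots. The deposited table holds log2 values made by the authors, equal within 0.01 to those used here, after an offset per array, for at least 61236 of 61307 probes. Per the series' design text, the authors used GeneSpring GX 11.5 and a t-test.

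Levels are log2 of this signal, with the 75th percentile of an array's non-control spots subtracted on that scale. The 1319 control spots of each array and spots flagged as outliers (31 and 68 on 3MC+TPA arrays, 42 and 20 on control arrays) were left out; 0 spots were saturated. A feature is a gene name, read by its probe of highest mean signal, and tested when that probe was well above background on both arrays of at least 1 group. Groups were compared with limma 3.58.1 in R 4.3.3 (lmFit and eBayes, 2-sided), with Benjamini-Hochberg adjustment over 24977 features and a threshold of 0.05; errors beside a log2 change are standard errors. An at-least fold sets the bright group's mean against, per array, the higher of the probe's own value and the dimmest signal well above background. An adjusted p beside it belongs to the fitted log2 change, not to the bound, which holds for the values as scaled here. Substitute values entered the fit like measured ones. The fit was tested on simulated data. The number of arrays limits the precision.

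Symbols were matched to a GRCm38.p6 gene table, which held all 59 members and gave the order of genes; the array files give no position for the probes. Dchs2 and Cdhr4 of the lists had no match on the array. Alternatives are given in the closing section. The members, lists and tests were chosen with earlier results of these data known. The genes named are every called member, members with an at-least fold of 2 or more, the highest and lowest change of each subgroup, Cdh1, Cdh2, Cdh3, Cdh5, Cdh11, Ctnna1, Ctnnb1, Ctnnd1 and Jup, second probes where tested, and of each list up to 4 called genes or else the one with the largest change. Other genes are named to complete a count, after their values were seen. Some list genes are not reported here by name.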

Additional observations from a re-analysis of the deposited data

How the results depend on the processing

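All 11 called members kept their direction in every alternative run. Direction could change only with other scaling, background correction or deposited values, with an array left out, or on a second probe. The other runs left each log2 change as it was and altered only its p-value. Their calls were lost in part: 0 of 11 with quantile normalization, no scaling between arrays or an intensity trend with robust eBayes, 1 with the deposited values or every probe on its own, 3 with normexp, 9 with no filter on dim probes and 11 with the methods' t-test after adjustment. The features called, 3960 in all, numbered 6725 without scaling between arrays, 907 with no filter (of 50090 tested), 868 with the second probe (of 5592 tested) and 23 with the methods' t-test after Benjamini-Hochberg adjustment (5725 unadjusted). The members called, 11 of 24, numbered 2 with no filter and 0 with the methods' t-test after adjustment (8 unadjusted). Where all 4 arrays had to be well above background, 6 of the 18 members tested were called, and 0 of these 6 calls were lost. With the second probe 2 of the 8 members that had one tested were called, and only 2 of the 11 called members had one. The second probe added Cdh11 with -3.56. The list genes called, 25, numbered 42 without scaling, 7 with no filter, 9 with the second probe, 41 with every probe on its own and 0 with the methods' t-test after adjustment (26 unadjusted). Leaving out 1 array gave 1183 to 3327 features, 3 to 10 members and 8 to 23 list genes; 1427 and 1183 features were called without 3MC+TPA arrays 1 and 2, and 2473 without control array 2. In such fits the lone array of a group is assumed to vary like the other group. No scaling moved the median of all features to 0.34 and the share of higher calls to 79.1%, against 47.2%, and with it the sign of uncalled members near 0. Samples share replicate numbers by label only (correlation of deviations 0.003); with the replicate block 3587 features, 10 members and 27 list genes were called. With 2 arrays a group, a change of a dim probe is limited by the background, and the cause of each lost call was not tested.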
